A study of Mus musculus with 6 samples.

Results

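The genes of the major histocompatibility complex (MHC) that present peptides to T cells were examined in the epididymal white adipose tissue (eWAT) of Mettl14f/f and Mettl14Δfat mice. They were all genes of the expression table whose symbol starts with H2-, the mouse name of the MHC, together with B2m, Cd74, Ciita, Tap1, Tap2, Tapbp and Nlrc5. This gave 46 of the 21361 named genes. Of these, 29 encode class I heavy chains or belong to their families, 9 are class II genes and 7 are accessory genes. The last, H2-Ke6, lies between H2-K1 and the class II genes but encodes a steroid dehydrogenase (Hsd17b8). The H2- genes that could be placed lie on chromosome 17 of GRCm38, as do Tap1, Tap2 and Tapbp, with B2m on chromosome 2, Nlrc5 on chromosome 8 and Ciita on chromosome 16.

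RNA was sequenced from 6 male mice on a high fat diet (HFD), 3 Mettl14f/f and 3 Mettl14Δfat, each library from a separate mouse. The Mettl14f/f mice carry floxed Mettl14 alleles and are labelled wild type for genotype, while the Mettl14Δfat mice carry the same alleles with Cre under the adiponectin promoter. All were 8 weeks old when the diet began, stayed on it for 16 weeks by the sample labels and longer by the design text of the series, and were fasted overnight before eWAT was taken. Adiponectin-Cre acts in adipocytes, so the macrophages, lymphocytes and endothelial cells of the tissue keep the gene, and the RNA came from the whole tissue. Mettl14 encodes a subunit of the methyltransferase that places N6-methyladenosine (m6A) on RNA.

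MHC class I molecules are made of a heavy chain and the light chain β2-microglobulin, are present on nearly all nucleated cells, and show peptides from inside the cell to CD8 T cells. Class II molecules are pairs of an α and a β chain, are made mainly by dendritic cells, macrophages and B cells, and show peptides from engulfed material to CD4 T cells. Interferon γ raises both, through the coactivators Nlrc5 for class I and Ciita for class II. In adipose tissue of obese mice, macrophages carry class II molecules, and adipocytes have also been described to.

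The promoters of 5 members are shown because, of the class I genes, H2-Q7 passed the test between the genotypes and H2-K1 and H2-D1 had values of opposite sign that did not, and the class II genes H2-Aa and H2-Eb1 had the largest standard errors. Each is the 200 bases before the transcription start in RefSeq (GRCm38.p6, chromosome 17), in the direction of transcription. The start is the one of the promoter table, and the H2-K1 window and the last bases of the H2-Q7 window lie within the spans annotated for these genes. Capitals mark matches on either strand to 4 motifs of MHC promoters: ATTGG (the CCAAT or Y box), TGACG (the core of the cAMP response element), GGGGNTTCC (κB) and TTTCNNTTC (an interferon response element).
H2-K1 (chr17:34000348-34000547, minus strand): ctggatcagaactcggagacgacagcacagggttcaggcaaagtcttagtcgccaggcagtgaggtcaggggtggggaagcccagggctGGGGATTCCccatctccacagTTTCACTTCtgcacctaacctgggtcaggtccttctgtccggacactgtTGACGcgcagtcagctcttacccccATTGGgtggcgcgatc
H2-D1 (chr17:35262894-35263093, plus strand): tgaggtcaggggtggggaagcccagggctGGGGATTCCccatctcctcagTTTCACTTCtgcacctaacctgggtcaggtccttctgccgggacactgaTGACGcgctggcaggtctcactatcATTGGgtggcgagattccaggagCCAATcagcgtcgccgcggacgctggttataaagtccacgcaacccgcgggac
H2-Q7 (chr17:35438955-35439154, plus strand): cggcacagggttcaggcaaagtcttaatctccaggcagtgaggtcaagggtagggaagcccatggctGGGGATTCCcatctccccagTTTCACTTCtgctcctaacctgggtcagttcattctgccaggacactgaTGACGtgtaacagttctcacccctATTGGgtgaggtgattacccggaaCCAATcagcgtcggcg
H2-Aa (chr17:34287824-34288023, minus strand): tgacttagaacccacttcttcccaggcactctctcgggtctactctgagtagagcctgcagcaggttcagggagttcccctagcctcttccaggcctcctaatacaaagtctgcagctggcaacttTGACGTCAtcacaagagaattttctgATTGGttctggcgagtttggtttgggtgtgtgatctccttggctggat
H2-Eb1 (chr17:34305667-34305866, plus strand): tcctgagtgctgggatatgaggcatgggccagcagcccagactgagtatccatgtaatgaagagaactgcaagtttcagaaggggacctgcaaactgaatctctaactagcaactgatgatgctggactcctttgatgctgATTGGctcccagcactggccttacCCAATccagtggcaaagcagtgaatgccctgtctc
In H2-K1 and H2-D1 the κB, interferon response, TGACG and ATTGG matches lay in the same order, with first bases 21, 49 and 25 bases apart. In H2-Q7 the distances were 20, 49 and 24 bases. The matches of H2-D1 lay farther from the annotated start than those of H2-K1, for which RefSeq gives another start besides the one used. Neither the κB nor the interferon response motif matched in the class II promoters shown. In H2-Aa the TGACG motif and its reverse complement overlapped in TGACGTCA.

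Promoter windows from 250 bases before to 50 bases after the start were held for 31 members, and 32851 windows were in the table in all. Each member was counted once, as matching if any of its windows held the motif, whereas the share over all is of single windows. ATTGG was in 16 of 19 class I and 8 of 8 class II members, against 37.4% of all windows. TGACG was in 10 of 19 class I and 1 of 8 class II members, against 20.8% of all windows. The κB motif was in 4 class I members (H2-K1, H2-D1, H2-Q6 and H2-Q7) and 0 of 8 class II members, against 1.69% of all windows. The interferon response motif was in 8 of 19 class I and 0 of 8 class II members, against 7.52% of all windows. These are matches of letters only, and related class I genes share sequence by descent.

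Expression was deposited as FPKM, that is, fragments counted per kilobase of transcript and scaled to the mapped fragments of the library. These were divided here by a further factor for each library, and all values below are such scaled FPKM. Where 3 values are given for a genotype they are those of replicates 1, 2 and 3, in that order. Mettl14 itself was 5.37, 5.00 and 5.79 FPKM in Mettl14f/f and 4.19, 4.12 and 4.29 FPKM in Mettl14Δfat. Its log2 fold change was −0.30 (SE, the standard error, 0.0659, limma adjusted p = 0.0108), and no Mettl14Δfat library reached the Mettl14f/f libraries. It passed in 12 of 14 alternatives, with limma adjusted p values of 0.00639 to 0.134, and not without scaling or with Mettl14Δfat replicate 3 alone. The adipocyte markers (Adipoq, Plin1, Cidec, Lep, Fabp4 and Lipe) summed to 7391 to 10103 FPKM in Mettl14f/f and 9825 to 14158 FPKM in Mettl14Δfat eWAT. Fabp4 made up most of the sum, and its log2 fold change was 0.61 (limma adjusted p = 0.0266). Lep had −0.46 (limma adjusted p = 0.0368), and the other 4 did not pass. Of the 6 values, 3 were positive and 3 negative. Calls were thus 16.7% in each direction, against 24.8% of all genes. Male germ line transcripts were present in Mettl14Δfat replicates 1 and 2. The sum of Prm1, Prm2, Tnp1 and Tnp2 was 158 and 243 FPKM there and 0.214 to 0.890 FPKM in the other 4 libraries. Deposited FPKM summed to between 459180 and 461757 in the Mettl14f/f libraries and between 487025 and 487690 in the Mettl14Δfat libraries, and the depth of single libraries is unknown.

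MHC transcripts were abundant in every library, and the levels of most members overlapped between the genotypes. Of the 46 members, 32 averaged 1 FPKM or more across the libraries and were tested, which were 16 class I genes, 8 class II genes, the 7 accessory genes and H2-Ke6. At an adjusted p under 0.05 from limma, 4 of the 32 were higher in Mettl14Δfat eWAT (12.5%), against 24.8% of the 12955 genes tested. These were Tapbp and Nlrc5 among the accessory genes, H2-Q7 of class I and H2-Oa of class II. By limma 0 were lower, against 24.8% of all genes. At an unadjusted p under 0.05, 9 members were higher and 0 lower. Of the 12955 genes tested, 3807 were higher and 3667 lower at that threshold. In 5 members every Mettl14Δfat library lay above every Mettl14f/f library (Tapbp, H2-Q7, H2-DMb1, H2-DMb2 and H2-Oa), against 30.3% of all genes, and in 0 members below, against 30.8%. The share of members called was thus below the share of all genes. In bulk tissue, fewer cells of a type and less RNA per cell cannot be told apart.

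The log2 fold changes, all on the scale of log2(FPKM + 1), were positive in 28 of the 32 members. Their median was 0.33 over the members, 0.20 over class I, 0.40 over class II and 0.25 over the accessory genes, and 0.01 over all genes tested. All 8 class II genes tested had positive values, from 0.16 to 0.50. Class I ran from −0.45 (H2-M2) to 0.88 (H2-Q9), with 4 negative values. The median SE was 0.198 over class I and 0.235 over class II, against 0.0872 over all genes tested.

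**Figure D1:**
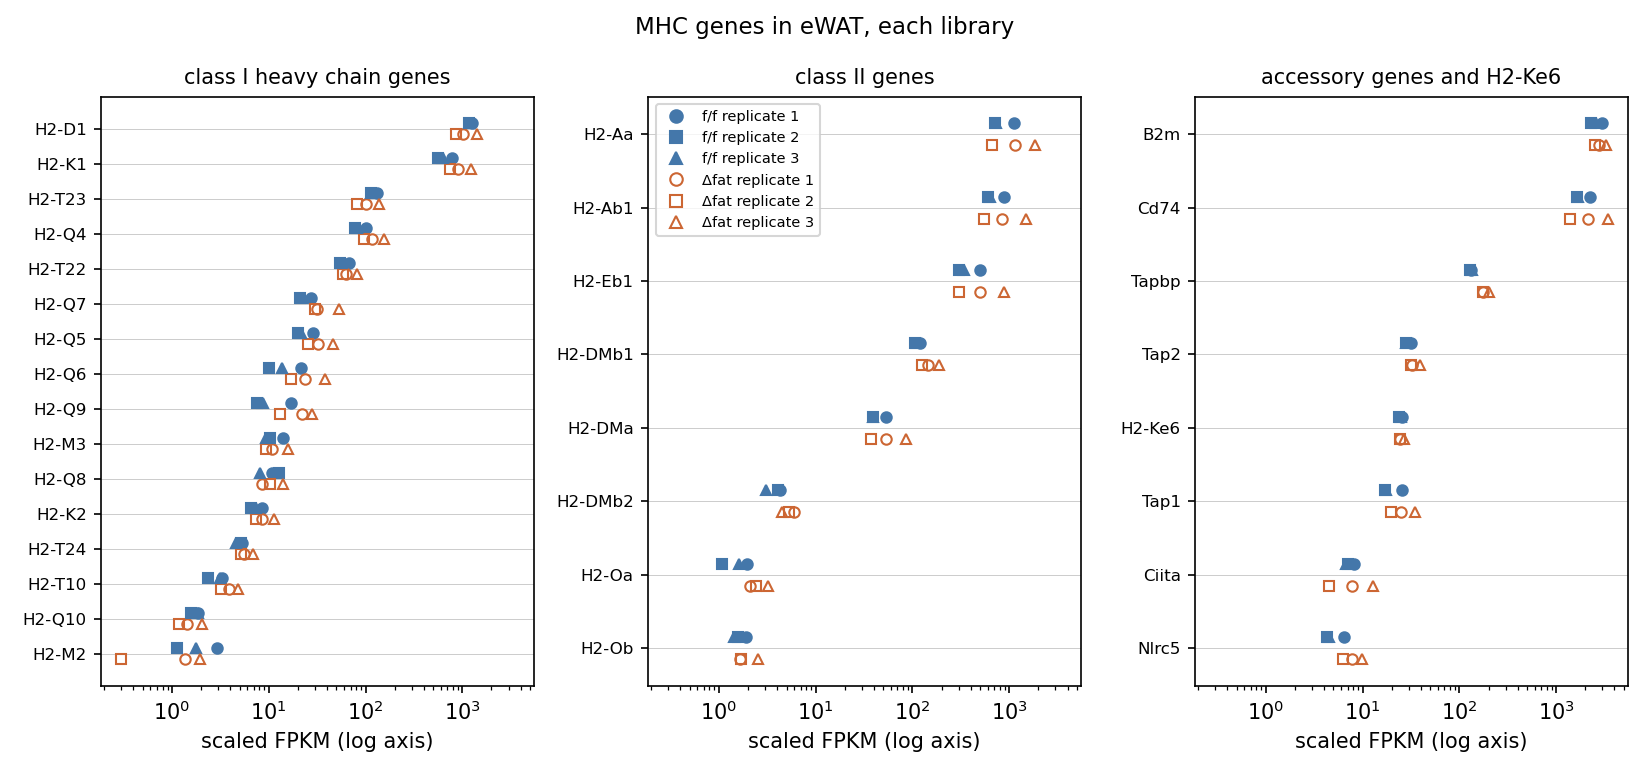
Level of the 32 tested members in each library, in scaled FPKM on a log axis, for class I genes (left), class II genes (middle) and accessory genes with H2-Ke6 (right). Filled blue symbols are Mettl14f/f and open orange symbols Mettl14Δfat libraries, with 1 shape per replicate number. Mettl14Δfat replicate 3 (open triangles) was the highest of the 6 libraries in 30 of the 32 members.

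The classical class I heavy chains H2-K1 and H2-D1, which bind peptides for CD8 T cells, made up 81.6% to 83.6% of the summed class I FPKM in each library. H2-D1 (chromosome 17, 35263094 to 35267497) was the higher of the pair. It was 1271, 1171 and 1183 FPKM in Mettl14f/f and 1015, 860 and 1417 FPKM in Mettl14Δfat. The Mettl14Δfat libraries lay on both sides of the Mettl14f/f libraries, and its log2 fold change of −0.17 (SE 0.180, limma adjusted p = 0.459) was within the spread between mice. H2-K1 (chromosome 17, 33996012 to 34000619) was 787, 558 and 627 FPKM in Mettl14f/f and 904, 754 and 1237 FPKM in Mettl14Δfat. Mettl14Δfat replicate 2 was below Mettl14f/f replicate 1, the other libraries did not cross, and the log2 fold change was 0.54 (SE 0.208, limma adjusted p = 0.0708).

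The ratio of H2-K1 to H2-D1 within a library, chosen after the values were seen and free of the scaling, separated the genotypes. It was 0.619, 0.476 and 0.530 in Mettl14f/f and 0.890, 0.877 and 0.873 in Mettl14Δfat. This is 0.542 ± 0.0721 and 0.880 ± 0.00904 (SD, n = 3 each). The Mettl14Δfat mice were much alike in this ratio although replicate 3 had more RNA of both genes than replicates 1 and 2. Class I genes resemble each other, so fragments can be assigned to the wrong member. Of the 100-base windows of the annotated transcripts, 0.957% in H2-K1 and 3.59% in H2-D1 also occurred in another gene.

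Among the H2-Q genes, which lie next to H2-D1 and include the genes of the nonclassical Qa-2 molecule (H2-Q6 to H2-Q9), H2-Q7 (chromosome 17, 35439140 to 35443773) passed the test. It was 27.2, 20.8 and 22.2 FPKM in Mettl14f/f and 31.4, 30.3 and 53.1 FPKM in Mettl14Δfat, without overlap. Its log2 fold change was 0.65 (SE 0.222, limma adjusted p = 0.0489), and it was past the threshold in 7 of 14 alternatives, with adjusted p values of 0.00976 to 0.141. The other H2-Q genes tested did not pass, with log2 fold changes of 0.88 for H2-Q9, 0.74 for H2-Q6, 0.51 for H2-Q5, 0.47 for H2-Q4, 0.04 for H2-Q8 and −0.13 for H2-Q10. Their adjusted p values ran from 0.0743 to 0.882. H2-Q10, whose product is secreted by the liver, did not exceed 2.06 FPKM in any library. H2-Q7 shared 12.0% of its windows with other genes, H2-Q6 10.8% and H2-Q5 14.0%, and H2-Q8 and H2-Q9 were not in the annotation used for that count, so the values of single H2-Q genes are uncertain.

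H2-T23, which encodes Qa-1, a ligand of inhibitory receptors of natural killer cells, took the direction of H2-D1. It was 131, 114 and 114 FPKM in Mettl14f/f and 101, 80.9 and 138 FPKM in Mettl14Δfat (log2 fold change −0.19, SE 0.188, limma adjusted p = 0.423). Without Mettl14Δfat replicate 3, H2-D1 and H2-T23 were lower in Mettl14Δfat eWAT, with log2 fold changes of −0.37 and −0.40 (limma adjusted p = 0.0204 and 0.0248). With replicate 3 as the only Mettl14Δfat library both were positive, at 0.24 and 0.22, without passing. H2-T22 and H2-T10, described as ligands of a γδ T cell receptor, had log2 fold changes of 0.16 and 0.33, and H2-T24 had 0.18. Their limma adjusted p values were 0.107 to 0.357. In RefSeq H2-T10 is annotated as a transcribed pseudogene, as are H2-Q5 and H2-K2 among the tested class I genes. H2-M3, which presents N-formylated peptides, had 0.07, H2-K2 0.23 and H2-M2 −0.45, and none of these passed. H2-M2 was 2.93, 1.12 and 1.79 FPKM in Mettl14f/f and 1.38, 0.298 and 1.95 FPKM in Mettl14Δfat, which overlap.

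The 14 members under the filter were close to the lower limit of the table, which is rounded to 2 decimals. H2-Q2 reached 1.11 FPKM as deposited. It was 0.334, 0.204 and 0.159 FPKM in Mettl14f/f and 0.571, 1.03 and 0.756 FPKM in Mettl14Δfat, without overlap, and it passed the test when no filter was applied. Of the others, again in deposited FPKM, H2-T9 reached 0.55, H2-M9 0.52, the class II β chain gene H2-Eb2 0.46, H2-Q1 0.43, H2-L 0.34, H2-T3 0.20 and H2-M5 0.17. H2-T3 encodes the thymus leukemia antigen. H2-L is a class I gene that some inbred strains lack. H2-M10.2 reached 0.12, H2-Bl 0.08, H2-M1 0.06 and H2-M10.1 and H2-M10.5 0.04 FPKM as deposited, and H2-M10.4 was listed at 0 in all 6 libraries. The H2-M10 genes are known for expression in the vomeronasal organ.

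The class II genes of the peptide-binding chains were among the most abundant members and among the most variable between mice. H2-Aa and H2-Ab1 encode the α and β chains of I-A, H2-Eb1 the β chain of I-E, and the 3 made up 89.9% to 93.6% of the summed class II FPKM. H2-Aa (chromosome 17, 34282744 to 34287823) was 1131, 714 and 735 FPKM in Mettl14f/f and 1142, 670 and 1851 FPKM in Mettl14Δfat. The Mettl14Δfat libraries held both the lowest and the highest value, and the log2 fold change was 0.42 (SE 0.375, 95% interval −0.48 to 1.32, limma adjusted p = 0.384).

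H2-Ab1 was 890, 605 and 636 FPKM in Mettl14f/f and 848, 552 and 1477 FPKM in Mettl14Δfat, a log2 fold change of 0.34 (limma adjusted p = 0.454). H2-Eb1 was 501, 306 and 339 FPKM in Mettl14f/f and 503, 302 and 872 FPKM in Mettl14Δfat, a log2 fold change of 0.45 (limma adjusted p = 0.365). In both genes Mettl14Δfat replicate 2 was lowest and replicate 3 highest of the 6 libraries. Without replicate 3 the log2 fold changes were 0.06 for H2-Aa, −0.03 for H2-Ab1 and 0.06 for H2-Eb1. With replicate 3 as the only Mettl14Δfat library, they were 1.14, 1.08 and 1.23, with adjusted p values from limma of 0.0418, 0.0312 and 0.0343.

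The class II genes H2-DMa, H2-DMb1 and H2-DMb2, which act on peptide loading, had SEs of 0.297, 0.151 and 0.136. Those of H2-Aa, H2-Ab1 and H2-Eb1 were 0.375, 0.354 and 0.387. H2-DMa and H2-DMb1 encode the H2-DM molecule, which exchanges the invariant chain fragment for peptide, and H2-DMb2 another DM β chain. H2-DMb1 was 119, 105 and 111 FPKM in Mettl14f/f and 146, 124 and 190 FPKM in Mettl14Δfat. These did not overlap, with a log2 fold change of 0.43 (SE 0.151, limma adjusted p = 0.0526). H2-DMb2 was 4.33, 4.12 and 3.06 FPKM against 5.96, 5.35 and 4.44 FPKM, a log2 fold change of 0.37 (limma adjusted p = 0.0593), also without overlap. H2-DMb2 was the only class II gene tested whose highest library was not Mettl14Δfat replicate 3. H2-DMb1 and H2-DMb2 shared 11.3% and 10.3% of their windows with each other. H2-DMa was 53.9, 38.8 and 38.8 FPKM in Mettl14f/f and 53.9, 37.4 and 86.2 FPKM in Mettl14Δfat, which overlap.

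H2-Oa and H2-Ob encode H2-O, an inhibitor of H2-DM. H2-Oa (chromosome 17, 34092379 to 34095234) was 1.95, 1.07 and 1.60 FPKM in Mettl14f/f and 2.11, 2.43 and 3.22 FPKM in Mettl14Δfat. Its log2 fold change of 0.50 (SE 0.173, limma adjusted p = 0.0496) was past the threshold in 5 of 14 alternatives, with adjusted p values of 0.0248 to 0.131. The partner chain H2-Ob was 1.45 to 1.89 FPKM in Mettl14f/f and 1.65 to 2.55 FPKM in Mettl14Δfat (log2 fold change 0.16, limma adjusted p = 0.398).

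**Figure D2:**
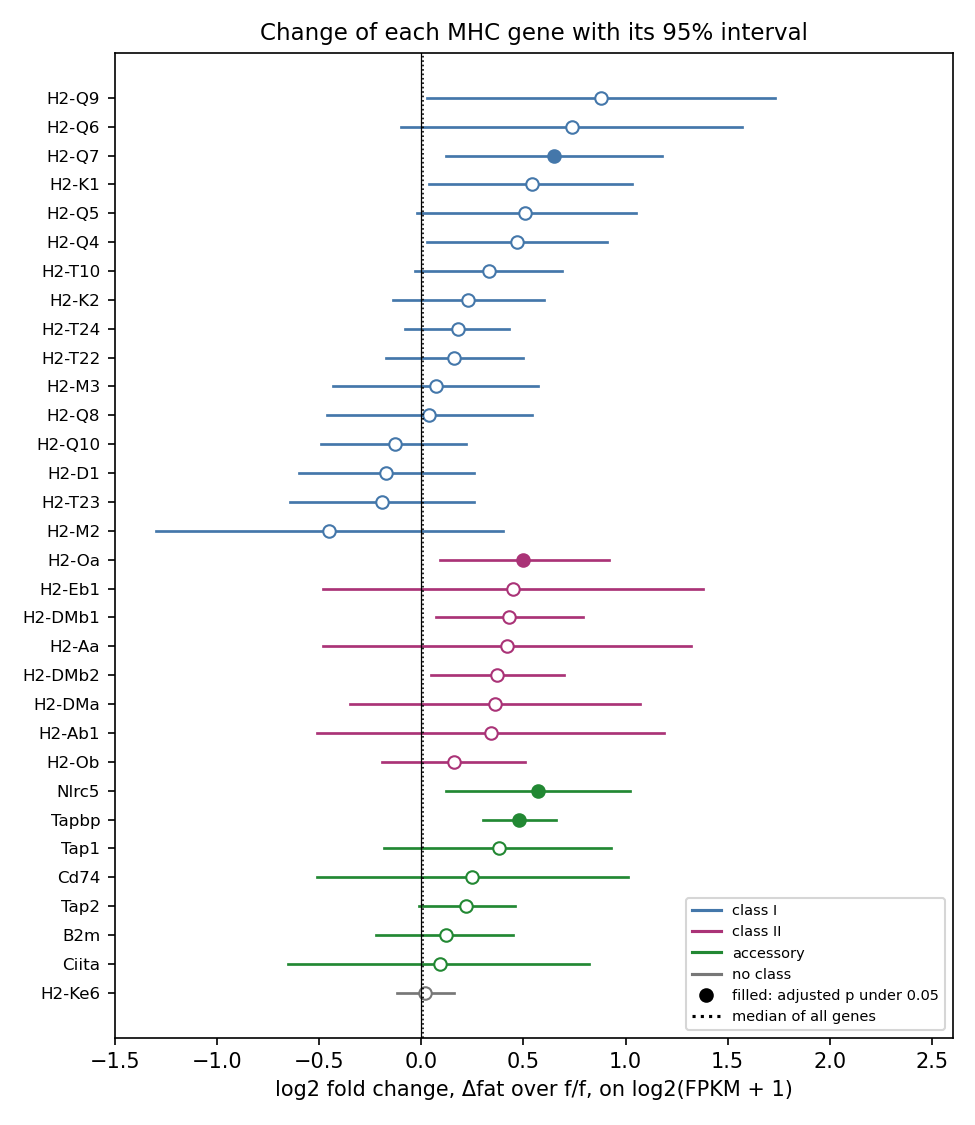
Log2 fold change of each tested member, Mettl14Δfat over Mettl14f/f on log2(FPKM + 1), with its 95% interval from limma. Filled points have an adjusted p under 0.05 (Tapbp, Nlrc5, H2-Q7 and H2-Oa), and the dotted line is the median of all genes tested, 0.01. Among class II genes the widest intervals are those of H2-Aa, H2-Ab1 and H2-Eb1.

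Of the accessory genes, Tapbp was the firmest change. Tapbp (chromosome 17, 33919478 to 33929290) encodes tapasin, which holds empty class I molecules at the peptide transporter. It was 131, 128 and 135 FPKM in Mettl14f/f and 175, 175 and 202 FPKM in Mettl14Δfat. The groups did not overlap. The log2 fold change was 0.48 (SE 0.0753, limma adjusted p = 0.00290), and it passed in 14 of 14 alternatives, with adjusted p values of 0.000637 to 0.0162.

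Nlrc5 (chromosome 8, 94434335 to 94527272), the coactivator of class I genes, was 6.45, 4.24 and 4.50 FPKM in Mettl14f/f and 7.77, 6.32 and 9.93 FPKM in Mettl14Δfat. It was higher by 0.57 on the log2 scale (SE 0.186, limma adjusted p = 0.0415), although Mettl14Δfat replicate 2 lay just below Mettl14f/f replicate 1. It passed in 8 of 14 alternatives, with adjusted p values of 0.0184 to 0.128. Ciita, the coactivator of class II genes, was 8.13, 7.02 and 6.67 FPKM in Mettl14f/f and 7.81, 4.52 and 12.8 FPKM in Mettl14Δfat. The Mettl14Δfat libraries lay on both sides of the others (log2 fold change 0.09, 95% interval −0.65 to 0.82, limma adjusted p = 0.832).

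B2m, the class I light chain, was 3002, 2307 and 2597 FPKM in Mettl14f/f and 2796, 2527 and 3245 FPKM in Mettl14Δfat (log2 fold change 0.12, limma adjusted p = 0.511). Cd74, the invariant chain that escorts class II molecules, was 2216, 1623 and 1697 FPKM in Mettl14f/f and 2125, 1403 and 3416 FPKM in Mettl14Δfat (log2 fold change 0.25, limma adjusted p = 0.543). Both overlapped between the genotypes. The peptide transporter genes Tap1 and Tap2 had log2 fold changes of 0.38 and 0.22 (limma adjusted p = 0.217 and 0.0961). H2-Ke6 was 24.0 to 25.5 FPKM in Mettl14f/f and 24.5 to 26.8 FPKM in Mettl14Δfat, and 61.6% of its windows also belong to the annotated gene Gm20427.

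The sums of class I and of class II overlapped between the genotypes. Summed class I was 2501, 2075 and 2166 FPKM in Mettl14f/f and 2351, 1974 and 3250 FPKM in Mettl14Δfat, with means of 2247 ± 224 and 2525 ± 656 FPKM (SD, n = 3). Summed class II was 2703, 1776 and 1866 FPKM in Mettl14f/f and 2702, 1696 and 4486 FPKM in Mettl14Δfat, with means of 2115 ± 512 and 2961 ± 1413 FPKM (SD, n = 3). The ratio of class II to class I was 1.08, 0.856 and 0.861 in Mettl14f/f and 1.15, 0.859 and 1.38 in Mettl14Δfat. Within each genotype the library with the largest sums also had the largest ratio, and the SD of the class II sum was larger than that of the class I sum in both genotypes. Cd74 followed class II, at 0.820 to 0.914 of the class II sum in Mettl14f/f and 0.761 to 0.827 in Mettl14Δfat. B2m was 1.11 to 1.2 times the class I sum in Mettl14f/f and 0.998 to 1.28 times in Mettl14Δfat.

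**Figure D3:**
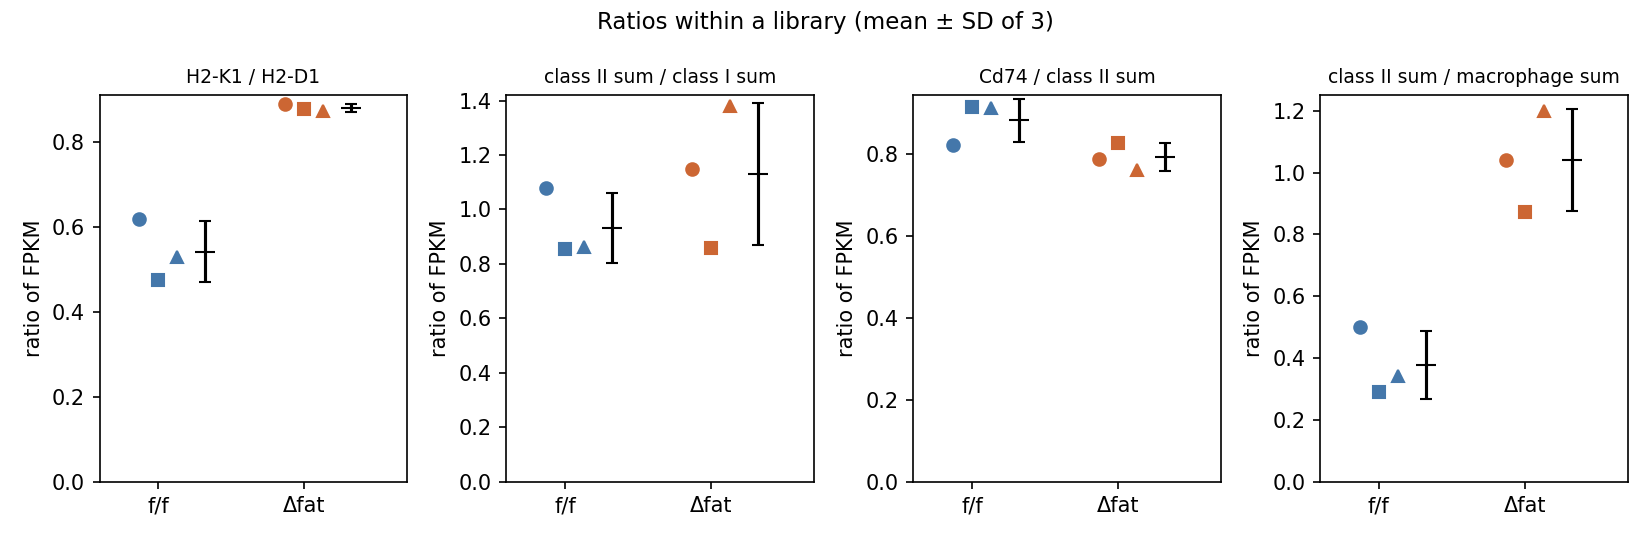
Ratios of FPKM within each library for the 2 genotypes, which do not depend on scaling between libraries. Symbols are replicates 1 (circle), 2 (square) and 3 (triangle), and the black bars are mean ± SD of 3 mice. H2-K1 over H2-D1 (0.476 to 0.619 and 0.873 to 0.890) and class II over the sum of macrophage markers (0.290 to 0.501 and 0.873 to 1.2) do not overlap between the genotypes, whereas class II over class I and Cd74 over class II do.

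The members kept nearly the same order of the mice. Mettl14Δfat replicate 3 was the highest Mettl14Δfat library in 31 of the 32 tested members, against 43.9% of all genes tested. It was the highest of all 6 libraries in 30 of 32, against 14.1% of all genes. Mettl14f/f replicate 1 was the highest Mettl14f/f library in 29 of 32, against 38.1%. The Mettl14Δfat order of replicate 3, then 1, then 2 held in 28 of 32, against 32.1% of all genes. That order and the Mettl14f/f order of replicate 1, then 3, then 2 held together in 22 of 32 (68.8%), against 5.53%. The members are measured in the same 6 mice, so these counts describe the mice and not separate events.

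The same order of the Mettl14Δfat mice was present in the macrophage marker sum (Adgre1, Csf1r, Cd68, Mrc1, Lyz2, Fcgr1, Mertk and Itgam), at 2597, 1944 and 3735 FPKM in replicates 1 to 3. Its order in Mettl14f/f differed, at 5395, 6117 and 5476 FPKM. The T and NK cell marker sum was 24.9, 11.9 and 13.4 FPKM in Mettl14f/f and 18.6, 16.7 and 23.4 FPKM in Mettl14Δfat, with 7 of its 8 genes in the table, and also had Mettl14f/f replicate 1 on top and the order 3, 1, 2 in Mettl14Δfat. Its part in the MHC levels was not tested. The germ line sum was 0.281 FPKM in Mettl14Δfat replicate 3, and its part in the lower MHC levels of replicates 1 and 2 was not tested.

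**Figure D4:**
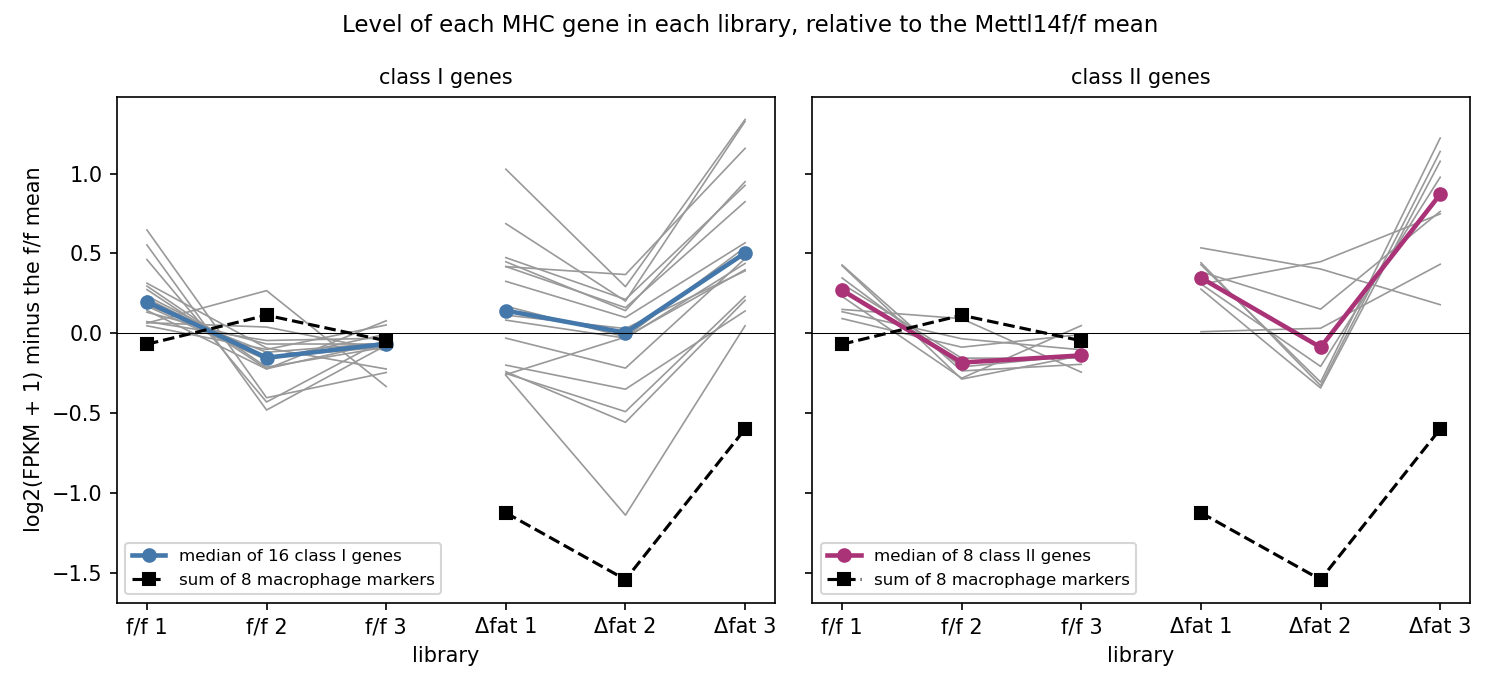
Level of each tested class I gene (left) and class II gene (right) in each library, as log2(FPKM + 1) minus the gene's Mettl14f/f mean, with grey lines joining the values of 1 gene, coloured lines the median over the genes and dashed black lines the sum of 8 macrophage markers. Mettl14f/f replicate 1 and Mettl14Δfat replicate 3 are high for both classes, and the sum of the macrophage markers is below all Mettl14f/f libraries in every Mettl14Δfat library.

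Of the 8 macrophage markers, 5 fell in Mettl14Δfat eWAT (Itgam, Adgre1, Cd68, Lyz2 and Mertk, log2 fold changes −1.59 to −0.48) and 0 rose, with a median of −0.81, against 24.8% of all genes in each direction. Csf1r, Mrc1 and Fcgr1 did not pass, with log2 fold changes of −0.52, −0.01 and 0.28. Their sum was 5663 ± 395 FPKM in Mettl14f/f and 2759 ± 907 FPKM in Mettl14Δfat (SD, n = 3), without overlap. Summed class II relative to that sum was 0.501, 0.290 and 0.341 in Mettl14f/f and 1.04, 0.873 and 1.2 in Mettl14Δfat. Lyz2 made up 61.0% to 64.7% of the sum and Cd68 20.5% to 24.3%, so the ratio follows these genes most. Relative to single markers, summed class II did not overlap between the genotypes for Adgre1, Csf1r, Cd68, Lyz2, Mertk and Itgam. It overlapped for Mrc1, where the Mettl14f/f libraries lay between 22.6 and 32.9 and the Mettl14Δfat libraries between 29.6 and 43.7, and for Fcgr1 (116 to 132 and 112 to 149). The ratios were chosen after the values were seen and are given with no test.

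Markers of the other cells that present antigen did not move as one. Of the dendritic cell markers, 7 of 8 were tested, with 2 higher (28.6%) and 1 lower (14.3%). These calls, and those of the B cell, T and NK cell and endothelial lists below, stand against 24.8% of all genes in each direction. Counts at an unadjusted p under 0.05 stand against 3807 higher and 3667 lower of the 12955 genes tested. Cd209a and Zbtb46, a transcription factor of classical dendritic cells, rose, with log2 fold changes of 1.22 and 0.45 (limma adjusted p = 0.000519 and 0.00657). Itgax (CD11c), which inflammatory adipose macrophages also express, fell by 2.32 on the log2 scale (limma adjusted p = 0.000334) and made up most of the list's sum, 221 to 243 FPKM in Mettl14f/f and 53.0 to 84.8 FPKM in Mettl14Δfat. Of 6 B cell markers, 3 were tested and none changed, with 2 lower at an unadjusted p under 0.05, and their sum was 13.8 to 16.8 FPKM in Mettl14f/f and 12.2 to 15.3 FPKM in Mettl14Δfat. Of the T and NK cell markers 0 of 5 tested changed, and 0 had an unadjusted p under 0.05. All 5 endothelial markers rose, with sums of 135 to 175 and 280 to 323 FPKM, and endothelial cells carry class I molecules. No marker in these lists was at 0 in any library. The part of these cells in the MHC values was not tested.

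Most genes that supply class II peptides fell. Of 9 genes for lysosomal proteases and other steps of class II loading and turnover, 7 fell (77.8%, against 24.8% of all genes), 0 rose and 2 did not pass, with a median log2 fold change of −0.68. Ctss encodes cathepsin S, which cuts the invariant chain in antigen presenting cells. It was 1184, 1321 and 1179 FPKM in Mettl14f/f and 550, 369 and 826 FPKM in Mettl14Δfat, without overlap (log2 fold change −1.15, limma adjusted p = 0.0134). The cathepsin genes Ctsd, Ctsl and Ctsb had log2 fold changes of −1.37, −1.12 and −0.93 (limma adjusted p = 0.000977, 0.000425 and 0.00262). These proteases are abundant in macrophage lysosomes, and the macrophage marker sum was lower in the same libraries. Its part in the fall was not tested.

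Of 11 genes of class I peptide supply, 1 rose (9.09%), 2 fell (18.2%) and 8 did not pass, against 24.8% of all genes in each direction. Their median log2 fold change was 0.18. Hspa5, the endoplasmic reticulum chaperone BiP, rose by 0.66 on the log2 scale (limma adjusted p = 0.000610). Erap1, the peptidase that trims class I peptides, and the chaperone Canx fell by 0.38 and 0.20 (limma adjusted p = 0.0330 and 0.0458). The immunoproteasome genes Psmb8, Psmb9 and Psmb10, which interferon γ induces, had log2 fold changes of 0.19, 0.36 and 0.18, with adjusted p values of 0.254 to 0.474.

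Of 16 tested genes for MHC promoter factors and interferon γ signaling, 5 rose (31.2%), 3 fell (18.8%) and 8 did not pass, shares near the 24.8% of all genes in each direction. Irf1, an interferon-induced factor that acts on class I promoters and on Nlrc5 and Ciita, was 24.7, 17.7 and 16.7 FPKM in Mettl14f/f and 35.9, 30.1 and 43.6 FPKM in Mettl14Δfat (log2 fold change 0.87, limma adjusted p = 0.00853). Socs1, an inhibitor of interferon signaling that interferon induces, rose by 0.82 (limma adjusted p = 0.00121). Rfxap and Nfyb, subunits of the factors that bind class II promoters, rose by 0.26 and 0.25 (limma adjusted p = 0.0106 and 0.0247). Nfya, the subunit of NF-Y that binds the CCAAT box, and Ifngr2, a chain of the interferon γ receptor, fell by 0.72 and 0.44 (limma adjusted p = 0.00196 and 0.0156). Ifng, chosen after its values were seen, did not exceed 0.223 FPKM in any library.

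Of 6 tested class I-like genes outside the H2- names, Fcgrt, the neonatal Fc receptor, and Hfe, a regulator of iron uptake, rose by 0.48 and 0.27 (limma adjusted p = 0.00377 and 0.0244). Procr, the endothelial protein C receptor, fell by 1.19 (limma adjusted p = 0.000513), and 3 did not pass. Of 8 tested receptors that bind MHC molecules, Lag3, a class II receptor of T cells, rose by 0.51 (limma adjusted p = 0.0471). Lilrb4a and Pirb, inhibitory receptors of myeloid cells, fell by 1.77 and 1.35 (limma adjusted p = 0.00106 and 0.00353), and 5 did not pass. The role of Lilrb4a as an MHC receptor is less clear than that of Pirb, which binds class I. Of 5 tested costimulatory genes, Icosl rose by 0.67 (limma adjusted p = 0.000685), and Cd86 had a log2 fold change of 0.95 that did not pass (limma adjusted p = 0.0508). These lists are small. Of their tested genes 33.3%, 12.5% and 20.0% rose and 16.7%, 25.0% and 0.0% fell, against 24.8% of all genes in each direction.

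The number of members called rested on single libraries. Without Mettl14Δfat replicate 3 it was 4 higher and 2 lower, against 29.4% and 27.5% of all genes. Without Mettl14Δfat replicate 2 it was 10 higher and 0 lower, against 21.0% and 20.7%. Without Mettl14f/f replicate 1 it was 4 higher, against 22.0%. It was 1 higher without Mettl14Δfat replicate 1, Mettl14f/f replicate 2 or Mettl14f/f replicate 3, against 17.6%, 18.5% and 18.8% of all genes. Tapbp was the gene called in each of these. With Mettl14Δfat replicate 3, the Mettl14Δfat library without germ line transcripts, alone against the Mettl14f/f libraries, 15 of 32 were higher, against 13.2% of all genes. They included H2-K1, H2-Aa, H2-Ab1, H2-Eb1, Cd74 and Ciita. That comparison rests on 1 mouse, which was also the highest of its genotype for the MHC genes, and its spread is taken from the Mettl14f/f mice.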

How the data were processed

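For each library the authors deposited FPKM per gene, rounded to 2 decimals. The authors name HISAT2, Bowtie2, RSEM, DESeq2 and the build mm10 in the submitters' processing notes, and STAR, HTSeq and DESeq2 in the methods, with versions not given in the sources used here. RNA was selected by oligo dT or depleted of rRNA, and which was used is not stated. Strand of counting is not stated. A further deposited table lists genes past the authors' thresholds with their fold changes and p values, which were not used. Its group means of scaled counts, a signal made by the authors, and its transcript lengths, as deposited by the authors, were set against the mean FPKM. The median number of fragments implied was 22200000 for Mettl14f/f (4051 genes) and 19200000 for Mettl14Δfat (4454 genes). Because the counts had been scaled, these values do not measure the depth of either group. FPKM without counts give no counting error for single genes, so precision rests on the spread between mice.

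The table has 21362 entries, of which 1 has no name and was dropped, and 27 symbols changed into dates were restored. Of the gene identifiers, 21300 matched RefSeq (GRCm38.p6). Library factors came from the trimmed mean of M values, unweighted, over genes averaging 1 FPKM or more (30% of ratios and 5% of levels trimmed), and lay between 0.933 and 0.959 in Mettl14f/f libraries and between 1.03 and 1.07 in Mettl14Δfat libraries. Differences were tested by limma 3.58.1 in R 4.3.3 (lmFit, eBayes with trend, two-sided) on log2(FPKM + 1), a scale that shrinks changes of low genes, with Benjamini-Hochberg adjustment over 12955 genes. A count test was not run on FPKM. An exact permutation test of 3 against 3 mice cannot give a p below 0.1 and was not used. The fit was tested on simulated data.

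Members, lists and tests were chosen with earlier results of these data known. Every tested member could be named, members under the filter by their highest value, and from each list up to 4 calls in the main direction and 2 in the other, or any gene of lists with 5 or fewer calls. Shared 100-base windows were counted over the GENCODE M21 transcripts. Alternatives were the pseudocount, filter, scaling, replicate block and libraries left out.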

Additional observations from a re-analysis of the deposited data

How the results depend on the processing

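The direction of most members held, but few calls did. Over 14 alternatives, Tapbp remained past the threshold in 14, Nlrc5 in 8, H2-Q7 in 7 and H2-Oa in 5. The calls of class I, class II and accessory genes as higher were 1, 1 and 2. They were 7, 3 and 3 with FPKM as deposited. That choice moved the median of all genes to 0.15 and the calls over all genes to 4672 higher and 1963 lower, against 3211 and 3209. With scaling factors from all genes, an alternative added after seeing the data, they were 0, 0 and 1, against 21.2% of all genes higher. With no filter they were 1, 0 and 1, against 14.3% of all genes. The class I gene was then H2-Q2, and H2-Q7 did not pass. Class II had 2 with a pseudocount of 0.1 and 3 with at least 1 FPKM in every library. Of all genes 25.1% and 26.4% were higher in these settings. Leaving out 1 library at a time gave 0 to 7 class I genes higher and 0 to 2 lower, 0 to 2 class II genes higher and 1 to 2 accessory genes higher. The median log2 fold change then ran from 0.07 to 0.31 for class I and from 0.06 to 0.61 for class II, lowest without Mettl14Δfat replicate 3 and highest without Mettl14Δfat replicate 2.

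Without the Mettl14Δfat replicates that hold germ line transcripts (1 and 2), an alternative added after seeing the data, 5 class I, 5 class II and 5 accessory genes were higher. The medians were 0.51 for class I and 0.87 for class II, and over all genes 1656 were higher and 1519 lower. H2-D1 (0.24), H2-T23 (0.22), H2-M2 (0.05) and H2-Q10 (0.14) then changed sign. Without Mettl14Δfat replicate 3, Cd74 (−0.08), Ciita (−0.24), H2-Ab1 (−0.03), H2-M3 (−0.12), H2-Q8 (−0.14) and H2-Ke6 (−0.02) did. With 1 library left out at a time, the highest values of the first 5 of these were 0.56, 0.42, 0.68, 0.23 and 0.19. H2-M3 was −0.04 and H2-Q8 −0.13 without Mettl14f/f replicate 3, and H2-Ke6 −0.01 without Mettl14f/f replicate 2. H2-Q8 was −0.02 and H2-Ke6 −0.05 with no filter and, alike, with factors from all genes. The causes were not tested.

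Libraries with the same replicate number did not deviate together (correlations 0.04, −0.09 and −0.13). With so few mice this cannot exclude that they were paired, and the labels state no pairing. With the replicate number as a block, 1 class I gene, 1 class II gene and 2 accessory genes were higher and 0 lower, with 2653 genes higher and 2559 lower in all, and medians of 0.20 and 0.40. H2-Q7 and H2-Oa were not past the threshold in the block (limma adjusted p = 0.0635 and 0.0752), whereas H2-Q9 and H2-DMb2 were.

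The 3 mice per genotype, the wide spread of the class II genes, the shared sequence of class I genes and the absence of counts limit these comparisons. An MHC gene that did not pass is not thereby shown to be unchanged. Replicates are separate mice by the labels' numbers, and values of fat mass were not used here.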
